A study of Drosophila melanogaster with 12 samples.

Results

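Cytoplasmic ribosomal protein genes encode the protein parts of the ribosome of the cytosol. They were followed across 12 RNA-seq libraries of sorted enteroblasts from the fly midgut. Genes were taken by name: every gene in the deposited count table whose FlyBase identifier maps to a symbol beginning with RpL or RpS and a digit, together with sta, RpLP0, RpLP1 and RpLP2. The rule found 77 of the 8802 genes in the table, 46 coding for the 60S subunit and 31 for the 40S subunit. All 77 passed the filter on low counts, as did 8069 genes in total. No symbol was found for 116 identifiers, which were not assigned to any family, and other ribosomal protein genes are not analysed here.

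The small (40S) subunit reads the mRNA and the large (60S) subunit joins amino acids and releases the chain through an exit tunnel. Each subunit needs 1 copy of nearly every one of its proteins, and in Drosophila the loss of 1 gene copy of many of them gives the Minute phenotype of slow growth and thin bristles. In the intestinal lineage, progenitors that differentiate into absorptive enterocytes grow greatly in size, a process that needs protein synthesis. Transcription of the family in flies is linked to Myc, TOR signalling and core promoter factors such as Dref, M1BP and Trf2.

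Enteroblasts are the progenitor cells between intestinal stem cells and enterocytes, and the study asked how they respond to Shavenbaby (Svb), a transcription factor encoded by ovo. Cells came from the posterior midgut (regions R3 to R5) of virgin females aged 9 days, which had spent their last 6 days at 29 °C. Each sample was a batch of more than 20 females, and cells were sorted for high GFP and large size, which does not by itself separate enteroblasts from every other esg-positive cell. Every group had 3 biological replicates from different calendar days, 12 libraries in all. All 4 groups carried esg-Gal4, UAS-GFP and tubGal80TS, a driver of the escargot gene that acts once heat inactivates its repressor. The control was this line over Canton-S, with no hairpin or extra transgene. The svb_RNAi group added UAS-SvbRNAi, the SvbACT group UAS-SvbACT::GFP (a constitutive activator form), and the SvbREP group UAS-Svb3Kmut::GFP (a mutant form labelled as the constitutive repressor). The strain crossed to the driver therefore differed together with the transgene, and the 2 cannot be told apart.

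Library totals ran from 2186283 counts (SvbREP replicate 3) to 7444253 (SvbREP replicate 2). The ovo gene had 1 to 117 counts in the control libraries, 97 to 195 in those labelled svb knockdown, 7317 to 13750 in SvbACT and SvbREP except SvbREP replicate 3 with 3750. Reads of the hairpin cannot be separated from those of the gene, so these counts do not check the knockdown, and the libraries are called by their label throughout. Progenitor markers were present in every library: the summed CPM of the 6 of 8 listed markers found in the table ranged from 2620 to 3494, and esg and Dl are not analysed here. Summed enterocyte markers (10 of 12 found) ranged from 270.2 to 937.2 CPM, enteroendocrine markers (11 of 11) from 5.60 to 98.3 CPM and visceral muscle markers (9 of 9) from 14.3 to 78.9 CPM. Of 5 listed hemocyte markers 2 were found: Hml was at 0 in all libraries, and srp ranged from 10.3 to 38.7 CPM. In whole-sample RNA, fewer cells of a type and less RNA per cell cannot be told apart.

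The ribosomal protein genes were among the most abundant in the table. CPM here is the usual count share of a library, with library totals scaled by TMM. The mean over the 12 libraries ran from 18.3 CPM for RpS15Ab to 4192 CPM for RpL3, with a median of 966.8 against 25.4 CPM over all tested genes, and 76 of 77 lay above 100 CPM. Levels of different genes are compared only per kilobase of median transcript length. On that scale the highest were RpL41 with 3350 CPM per kb, sta with 3207 and RpL3 with 2803. RpL41 ranged from 388 to 2117 CPM over the libraries, so its rank by the mean depends on a few high libraries. The lowest were RpS15Ab with 25.3, RpL34a with 179.5 and RpL24-like with 229.6 CPM per kb. RpL41 codes for the smallest protein of the ribosome, a short basic peptide, and RpL3 for a large-subunit protein that reaches towards the peptidyl transferase centre.

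In the BDGP6.54 annotation the 77 genes were spread over chromosome arms 3R (18 genes), 2L (16), 2R (16), X (13), 3L (13) and the fourth chromosome (1 gene, RpS3A). The genes were short: median transcript lengths ran from 288 to 1512 nt with a median of 708 nt, against 1921 nt over all tested genes. Coding lengths ran from 75 nt (RpL41) to 1248 nt (RpL3). In 26 members the introns held small nucleolar RNA genes, 66 in all. In 26 members, exons overlapped those of another gene, where reads may be shared or discarded in counting. The use of strand in counting is not given in the sources used here.

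Ribosomal protein genes took between 7.22% and 11.0% of all counts in a library. The control replicates 1, 2 and 3 held 8.20%, 8.53% and 7.22% (7.98% ± 0.68, SD, n = 3). The libraries labelled svb knockdown held 8.10%, 8.42% and 9.62% (8.71% ± 0.80, SD, n = 3). SvbACT replicates held 10.1%, 11.0% and 8.63% (9.91% ± 1.20, SD, n = 3), and SvbREP replicates 8.57%, 7.22% and 8.82% (8.20% ± 0.86, SD, n = 3). All 3 SvbACT libraries lay above all 3 control libraries, the nearest pair being SvbACT replicate 3 and control replicate 2. SvbACT and SvbREP overlapped, because SvbACT replicate 3 lay below SvbREP replicate 3. No test was made of this sum. The widest 95% Wilson interval was that of SvbREP replicate 3, from 8.78% to 8.86%, and such intervals cover counting error only.

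**Figure D1:**
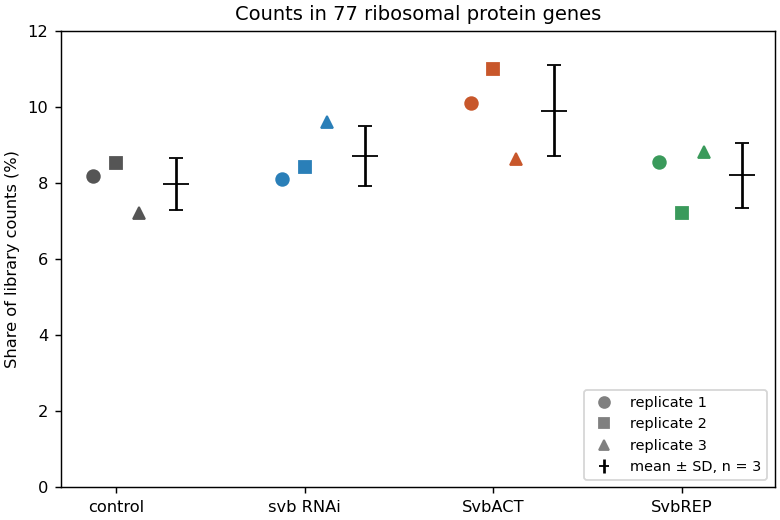
Share of each library's counts (percent, vertical axis) that fell in the 77 ribosomal protein genes, by genotype (horizontal axis), with a symbol for each replicate and black bars for the mean ± SD of 3 replicates. SvbACT replicates 1 and 2, at 10.1% and 11.0%, stand above the other 10 libraries, which run from 7.22% to 9.62%.

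The balance of the subunits varied little. Counts in 60S genes were 1.48 to 1.63 times those in 40S genes in every library, with means of 1.54 in the control, 1.51 in the libraries labelled svb knockdown, 1.58 in SvbACT and 1.56 in SvbREP. In SvbACT the median log2 fold change over control was 0.36 in the 46 genes of the 60S subunit and 0.30 in the 31 genes of the 40S subunit. Against SvbREP these medians were 0.41 and 0.32.

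The 4 comparisons between genotypes gave 1 call in the family at an adjusted p under 0.05. The model was fitted to all 8069 tested genes with edgeR's quasi-likelihood test and p-values were adjusted over all of them. In SvbACT against SvbREP the call was RpLP0, which was higher in SvbACT. Of all tested genes 7.21% were called, 3.53% higher. At an unadjusted p under 0.05, 18 of 77 members passed, all higher in SvbACT, against 9.32% of all tested genes called higher on that rule. DESeq2 called 3 members here (RpL18, RpLP0 and RpLP2), and 826 of the 8777 genes to which it gave an adjusted p. The median log2 fold change of the family was 0.38, against 0.01 over all tested genes, and 76 of 77 members lay above 0 (51.1% of all tested genes). In 18 members all SvbACT replicates exceeded all SvbREP replicates, as 10.7% of all tested genes did, and in none was it the reverse (10.1% of all tested genes). The family median was above 0 under every setting tried, and was 0.23 without SvbACT replicate 2. The count of members past the unadjusted threshold ran from 3 without that library to 35 with a length correction and replicate block.

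Several other measures separated SvbACT from SvbREP. The summed progenitor markers were 3302 to 3461 CPM in SvbACT and 2620 to 2775 CPM in SvbREP. Summed enterocyte markers were 397.8 to 695.2 CPM in SvbACT and 758.5 to 937.2 CPM in SvbREP. Neither pair of ranges overlapped. Visceral muscle sums, 31.8 to 40.7 CPM in SvbACT and 17.2 to 28.4 in SvbREP, did not overlap either. There 3 of 7 tested markers lay above 0, and edgeR called wupA alone, at 5.97 ± 1.33 (SE, adjusted p = 0.0094). Enteroendocrine sums overlapped, at 8.08 to 39.4 CPM in SvbACT and 5.60 to 15.7 in SvbREP. Among their 7 tested markers 5 lay above 0, and edgeR called NPF alone, at 6.26 ± 1.79 (SE, adjusted p = 0.0466). The enterocyte sum was mostly Myo31DF, an enterocyte myosin gene, at a mean of 397.1 CPM in SvbACT and 785.4 in SvbREP, with a log2 fold change of -0.98 ± 0.19 (SE; adjusted p = 0.0035). Of the 8 enterocyte markers tested 6 had log2 fold changes above 0, LManVI with 2.02 ± 1.07 (SE; adjusted p = 0.355) and Npc1b with 2.95 ± 1.14 (SE; adjusted p = 0.182) among them, and the list median was 1.70 with no marker called higher. The part of cell composition in the ribosomal protein values was not tested. SvbREP replicate 3 was also the smallest library. Without it, edgeR called 5 members as higher in SvbACT: RpL6, RpL8, RpLP0, RpS3 and RpS9. Of all 8236 genes tested without SvbREP replicate 3, 561 were called in either direction. With any other single SvbACT or SvbREP library left out, 0 or 1 member was called.

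In SvbACT against control no member was called, where 4.46% of all tested genes were called. At an unadjusted p under 0.05, 11 members passed, all higher in SvbACT, against 7.32% of all tested genes higher on that rule. DESeq2 called 1 member, RpL18, and 612 of the 8436 genes to which it gave an adjusted p. The median log2 fold change of the family was 0.33 against -0.01 over all tested genes, and 75 of 77 members lay above 0 (49.5% of all tested genes). In 23 members every SvbACT replicate exceeded every control replicate (10.2% of all tested genes), and in none was it the reverse (13.0%). The family median stayed between 0.26, without control replicate 3, and 0.45, without SvbACT replicate 3. The unadjusted count ran from 2, without SvbACT replicate 2, to 24, without SvbACT replicate 3 or with the length correction and replicate block. This comparison and those of the other genotypes against control share the control libraries, and SvbACT against SvbREP shares libraries with both.

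In the libraries labelled svb knockdown no member was called against control by edgeR or DESeq2, and none reached an unadjusted p under 0.05. Of all tested genes 8.5% were called and 19.0% reached the unadjusted threshold. The family median was 0.02, as over all tested genes, and 44 of 77 members lay above 0 (51.8% of all tested genes). In 9 members all replicates labelled svb knockdown lay below all control replicates, among them RpL3, RpL26, RpLP0 and RpS18, against 17.2% of all tested genes. In none were they all above (13.9%).

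In SvbREP against control no member was called by edgeR or DESeq2, and none reached an unadjusted p under 0.05. Of all tested genes 2.08% were called and 12.9% reached the unadjusted threshold. With replicate number as a block, edgeR called 290 of 8069 genes and 0 members, and 1 member reached the unadjusted threshold. The family median was -0.04 against -0.02 over all tested genes, and 30 of 77 members lay above 0 (48.4% of all tested genes). In 2 members, RpLP0 and RpS15Aa, every SvbREP replicate lay below every control replicate (11.3% of all tested genes), and in none was it the reverse (7.18%). In both of these comparisons the sign of the family median changed with the setting. It ran from -0.09 to 0.16 for the svb knockdown label and from -0.11 to 0.08 for SvbREP. The median SE of a member's log2 fold change was 0.22 in each of the 4 comparisons, so small differences of single genes were not resolved.

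**Figure D2:**
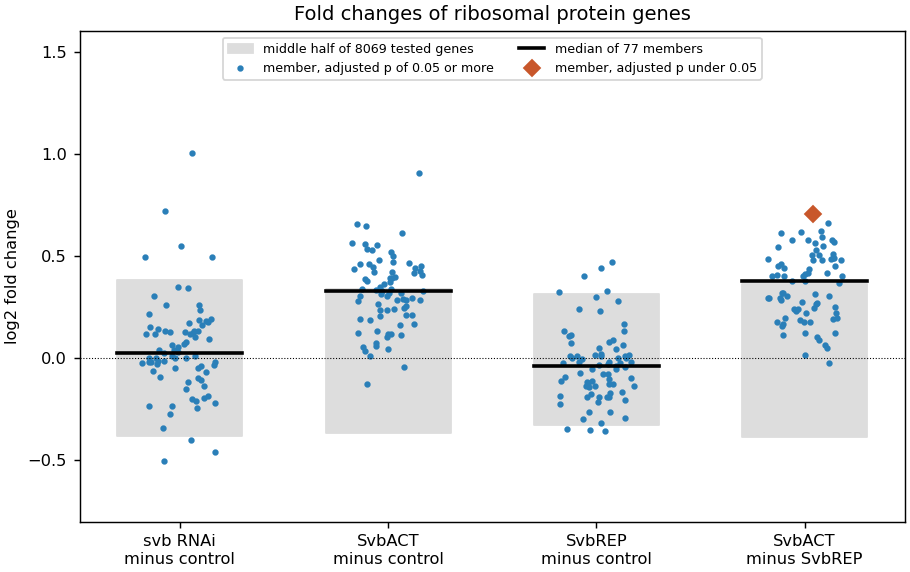
Fitted log2 fold change (vertical axis) of each of the 77 members in 4 comparisons (horizontal axis); blue points are members not called, the orange diamond is the called member, black bars are family medians and grey boxes span the first to the third quartile of all 8069 tested genes. Members sit around 0 for the svb knockdown label and SvbREP, with medians of 0.02 and -0.04, and mostly above 0 in both SvbACT comparisons, with medians of 0.33 and 0.38.

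Asked whether all 4 genotypes share 1 level, the test called no member, where 14.7% of all tested genes were called. At an unadjusted p under 0.05, 9 members passed, against 27.0% of all tested genes. The smallest p-values belonged to RpLP0, RpL23, RpL13, RpL18, RpS23, RpLP2, RpL26 and RpS18, with adjusted p from 0.0602 to 0.164. DESeq2's likelihood ratio test called 5 (RpL13, RpL18, RpL23, RpLP0 and RpS23), and 1667 of the 8606 genes to which it gave an adjusted p. The authors' deposited table called no member in SvbACT, SvbREP or the svb knockdown label against control, nor in SvbACT against SvbREP. It called RpL23, RpL13 and RpL26 higher in SvbACT than in the libraries labelled svb knockdown, where 10.7% of the genes in that table were called.

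The stalk of the large subunit is the flexible arm that draws elongation factors to the ribosome. RpLP0 (FBgn0000100, chromosome 3L from 22075867 to 22077487, plus strand) codes for its base, which carries pairs of the proteins made from RpLP1 and RpLP2. Values of single genes below are given for replicates 1, 2 and 3 in that order. RpLP0 stood at 1842, 1842 and 2008 CPM in the control libraries, 1658, 1793 and 1727 in those labelled svb knockdown, 1991, 3107 and 2451 in SvbACT and 1396, 1492 and 1747 in SvbREP. Every SvbACT library lay above every SvbREP library, and SvbACT replicate 2 was the highest of all 12. The control libraries were close together, and SvbACT replicate 1 lay just below control replicate 3. On the log2 scale the fold change of SvbACT over SvbREP was 0.70 ± 0.19 (SE; adjusted p = 0.0298). It was 0.49 (adjusted p = 0.194) without SvbACT replicate 2. The call was also lost without SvbACT replicate 3 (0.0784), SvbREP replicate 1 (0.0939) or SvbREP replicate 2 (0.125), with library totals (0.0507) and with only these groups fitted (0.178), and over all settings adjusted p ran from 0.00606 to 0.194. Against control the log2 fold changes of RpLP0 were 0.41 ± 0.19 (SE; adjusted p = 0.281) for SvbACT and -0.30 ± 0.19 (SE; adjusted p = 0.58) for SvbREP.

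RpLP2 had 1488, 1680 and 1324 CPM in the control, 1607, 1631 and 2136 under the svb knockdown label, 1951, 1774 and 1638 in SvbACT and 1464, 1012 and 1031 in SvbREP. The SvbACT libraries all lay above the SvbREP libraries, and the highest value was that of replicate 3 labelled svb knockdown. RpLP2 had a log2 fold change of 0.61 ± 0.20 (SE; adjusted p = 0.0802) in SvbACT over SvbREP and -0.36 ± 0.20 (SE; adjusted p = 0.494) in SvbREP over control, the lowest of any member in that comparison. For RpLP1 the control replicates gave 1258, 1220 and 794 CPM, the libraries labelled svb knockdown 1072, 1046 and 1241, SvbACT 1699, 1779 and 891 and SvbREP 1416, 978 and 838. SvbACT replicate 3 lay within the range of the control, and all groups overlapped. Fitted on the log2 scale, the fold change of RpLP1 in SvbACT over SvbREP was 0.43 ± 0.27 (SE; adjusted p = 0.419). All 3 stalk genes had positive log2 fold changes in SvbACT over SvbREP, as did 76 of the 77 members, whose median was 0.38. RpLP0 alone of the 3 passed the threshold.

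**Figure D3:**
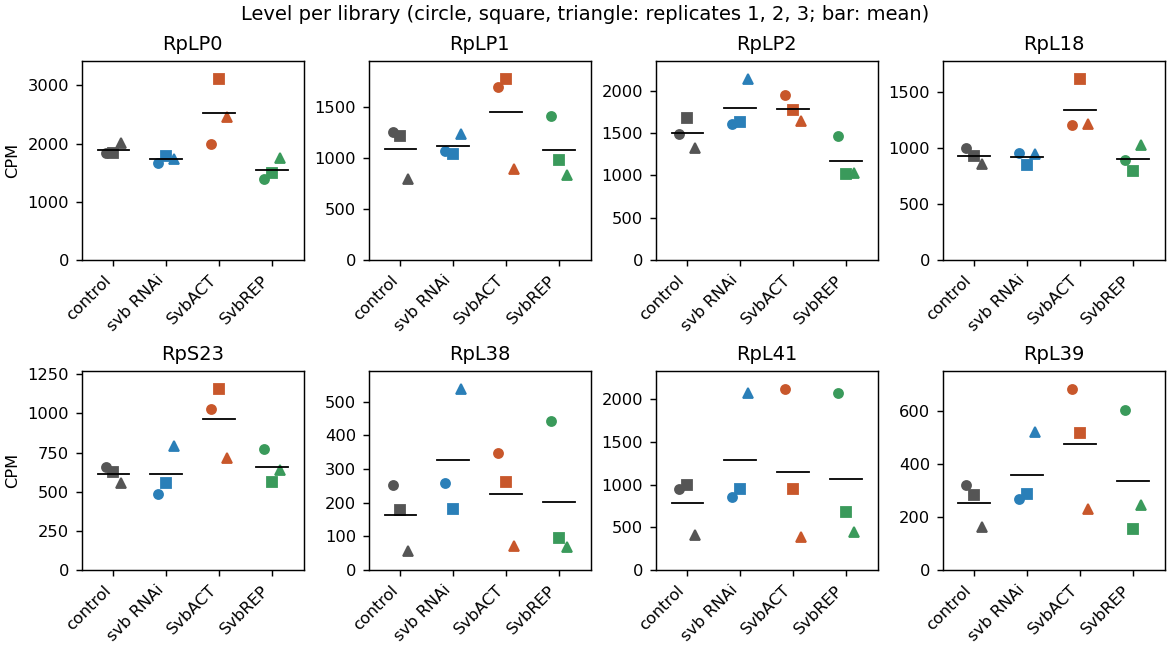
CPM (vertical axes, starting at 0) of 8 members in each library by genotype (horizontal axes), with circles, squares and triangles for replicates 1, 2 and 3 and a black bar for the mean of 3. RpLP0 and RpL18 are tight within the control and high in SvbACT replicate 2, while RpL38, RpL41 and RpL39 spread widely within genotypes, RpL38 from 56.1 to 536.7 CPM over all libraries.

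Other 60S genes had small p-values over the 4 genotypes without passing the threshold. RpL18 codes for a structural protein of the large subunit, and its exons overlap those of the gene BHD. In CPM, RpL18 reached 1002, 927 and 858 in the control, 954, 848 and 951 where svb knockdown was labelled, 1204, 1617 and 1215 in SvbACT and 894, 794 and 1029 in SvbREP. All SvbACT libraries lay above the other 9, with replicate 2 the highest. The log2 fold change of RpL18 was 0.53 ± 0.18 (SE; adjusted p = 0.124) over control and 0.57 ± 0.18 (SE; adjusted p = 0.0746) over SvbREP. RpL23 codes for a protein of the face that meets the small subunit, and its exons overlap those of inaD. RpL23 stood at 827, 863 and 862 CPM in the control libraries, 677, 688 and 934 in those labelled svb knockdown, 1135, 1630 and 1141 in SvbACT and 956, 706 and 1143 in SvbREP. SvbACT exceeded every control library but overlapped SvbREP, whose replicate 3 was high. Its log2 fold change over control was 0.61 ± 0.22 (SE; adjusted p = 0.134).

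RpL13 had 770, 823 and 890.2 CPM in the control, 694, 636 and 782 under the svb knockdown label, 949.9, 1369 and 1068 in SvbACT and 799, 712 and 916 in SvbREP. Every SvbACT library of RpL13, which codes for a structural 60S protein, exceeded all libraries of the 3 other groups. On the log2 scale the fold change was 0.45 ± 0.19 (SE; adjusted p = 0.223) over control and 0.48 ± 0.19 (SE; adjusted p = 0.155) over SvbREP. RpL26 codes for a protein near the mouth of the exit tunnel. For RpL26 the control replicates gave 895, 952 and 1010 CPM, the libraries labelled svb knockdown 695, 737 and 729, SvbACT 1074, 1296 and 1193 and SvbREP 850.2, 754 and 1417. Its libraries labelled svb knockdown lay below all others, with a log2 fold change over control of -0.40 ± 0.21 (SE; adjusted p = 0.336). In CPM, RpL7 reached 1512, 1518 and 1135 in the control, 1167, 1343 and 1768 where svb knockdown was labelled, 1857, 2154 and 1465 in SvbACT and 1372, 1249 and 844 in SvbREP. SvbACT exceeded SvbREP in all replicates of RpL7, another structural 60S gene, and its log2 fold change between them was 0.66 ± 0.23 (SE; adjusted p = 0.105), second to RpLP0 in the family.

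RpL3 and RpL24-like had the lowest log2 fold changes in the comparison of the svb knockdown label with control. RpL3 stood at 4289, 4074 and 4843 CPM in the control libraries, 3303, 3184 and 3118 in those labelled svb knockdown, 4069, 4918 and 5351 in SvbACT and 3222, 3515 and 6420 in SvbREP. All libraries labelled svb knockdown lay below all control libraries, and SvbREP replicate 3 was the highest. Its fitted log2 fold change was -0.46 ± 0.23 (SE; adjusted p = 0.307); exons of RpL3 overlap an antisense RNA gene. RpL23A codes for a protein at the tunnel exit that serves as a docking site for the signal recognition particle. RpL23A had 2384, 2059 and 1187 CPM in the control, 2175, 1684 and 2307 under the svb knockdown label, 2592, 2732 and 1443 in SvbACT and 1943, 1594 and 873 in SvbREP. Replicate 3 was the lowest of its genotype in control, SvbACT and SvbREP, and its log2 fold change in SvbREP over control was -0.35 ± 0.32 (SE; adjusted p = 0.739). RpL10Ab, which codes for the protein of the other stalk of the 60S subunit, where spent tRNA leaves, had the lowest log2 fold change of the family in SvbACT over control. For RpL10Ab the control replicates gave 1991, 1780 and 1638 CPM, the libraries labelled svb knockdown 1701, 1601 and 1769, SvbACT 1708, 1558 and 1692 and SvbREP 1381, 1117 and 1920. All groups overlapped, and its log2 fold change in SvbACT over control was -0.13 ± 0.20 (SE; adjusted p = 0.847).

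Among 40S genes, RpS23 codes for a protein at the decoding centre, where codon and anticodon are matched. In CPM, RpS23 reached 657, 626 and 553 in the control, 484, 558 and 793 where svb knockdown was labelled, 1029, 1155 and 712 in SvbACT and 775, 565 and 640.2 in SvbREP. SvbACT exceeded every control library, although its replicate 3 lay below replicate 3 labelled svb knockdown and SvbREP replicate 1. Fitted on the log2 scale, the fold change of RpS23 over control was 0.66 ± 0.23 (SE; adjusted p = 0.123), and it passed the threshold only with the length correction and replicate block (adjusted p = 0.0334). RpS18 codes for a protein of the head of the subunit. RpS18 stood at 993, 913 and 922 CPM in the control libraries, 679, 678 and 872 in those labelled svb knockdown, 1011, 1234 and 1098 in SvbACT and 778, 761 and 1051 in SvbREP. All replicates under the svb knockdown label lay below all control replicates, and all SvbACT replicates above them, with log2 fold changes of -0.34 ± 0.19 (SE; adjusted p = 0.355) and 0.24 ± 0.19 (SE; adjusted p = 0.593).

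The sta gene (stubarista, FBgn0003517, chromosome X from 1481797 to 1483413, minus strand) codes for the fly counterpart of the mammalian laminin receptor precursor, a protein of the 40S subunit. sta had 3357, 3273 and 3293 CPM in the control, 3540, 3394 and 3000 under the svb knockdown label, 3557, 4992 and 3919 in SvbACT and 2464, 2992 and 3995 in SvbREP. SvbACT lay above all control libraries, and SvbREP ranged from the lowest to the second highest value of the 12. Its log2 fold change was 0.33 ± 0.20 (SE; adjusted p = 0.467) in SvbACT over control and 0.40 ± 0.20 (SE; adjusted p = 0.3) over SvbREP. RpS21, whose product binds that of sta in flies, had the lowest log2 fold change of the family in SvbACT over SvbREP. For RpS21 the control replicates gave 591, 620 and 463 CPM, the libraries labelled svb knockdown 473, 503 and 664, SvbACT 646, 505 and 473 and SvbREP 596, 399.5 and 659. All groups overlapped, and the log2 fold change of RpS21 between SvbACT and SvbREP was -0.02 ± 0.22 (SE; adjusted p = 0.974). RpS21 also lay near 0 in SvbACT over control, at -0.04 ± 0.22 (SE; adjusted p = 0.953).

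RpL40 and RpS27A each code for a ribosomal protein fused to ubiquitin, which is cut off after translation. In CPM, RpL40 reached 1234, 1134 and 1109 in the control, 1082, 1075 and 1622 where svb knockdown was labelled, 1643, 1178 and 986 in SvbACT and 1287, 771 and 1028 in SvbREP. RpS27A stood at 912, 846 and 653 CPM in the control libraries, 724, 767 and 1172 in those labelled svb knockdown, 1085, 718 and 735 in SvbACT and 901, 727 and 486 in SvbREP. The highest values of both genes were those of SvbACT replicate 1 and replicate 3 labelled svb knockdown, and all genotypes overlapped. Log2 fold changes in SvbACT over control were 0.13 ± 0.24 (SE; adjusted p = 0.871) for RpL40 and 0.07 ± 0.26 (SE; adjusted p = 0.931) for RpS27A. Without both genes the family's share of counts was 7.80% in control, 8.49% for the svb knockdown label, 9.73% in SvbACT and 8.03% in SvbREP.

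Paralog pairs were both present in the table for 4 members. In each pair 1 gene gave most of the counts in every genotype, and because the copies are alike in sequence the counting could have split or dropped reads between them. RpS14a and RpS14b lie side by side on X, from 7933742 to 7934677 and from 7934898 to 7935792. RpS14b gave 17.7% ± 2.5 (SD, n = 3) of the pair's CPM in control, 19.1% ± 1.1 for the svb knockdown label, 19.0% ± 4.9 in SvbACT and 17.7% ± 3.6 in SvbREP. RpS15Ab gave 1.62% ± 0.35 of its pair with RpS15Aa in control, 1.67% ± 0.37 for the svb knockdown label, 1.99% ± 0.42 in SvbACT and 2.32% ± 0.46 in SvbREP. RpL34a gave 16.6% ± 2.6, 16.6% ± 1.9, 17.2% ± 1.1 and 20.0% ± 5.2 of its pair with RpL34b in the same order. For each of these 3 pairs the ranges of the 4 genotypes overlapped.

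RpL24-like, whose yeast relative is an assembly factor that is replaced by the RpL24 protein, gave 17.9% ± 4.3 (SD, n = 3) of the sum with RpL24 in control and 13.6% ± 1.9 for the svb knockdown label. It gave 15.2% ± 5.0 in SvbACT and 19.1% ± 8.3 in SvbREP. RpL24-like had 150, 183 and 227 CPM in the control, 104, 136 and 154 under the svb knockdown label, 122, 250.2 and 235 in SvbACT and 144, 108 and 317 in SvbREP. For RpL24 the control replicates gave 935, 856 and 788 CPM, the libraries labelled svb knockdown 747, 725 and 1047, SvbACT 1136, 1300 and 961 and SvbREP 869, 641 and 786. RpL24-like was highest in SvbREP replicate 3, where RpL24 was among the lower values. The log2 fold change of RpL24-like for the svb knockdown label was -0.50 ± 0.36 (SE; adjusted p = 0.532), the lowest in the family. Exons of RpL24-like overlap those of Dtd and exons of RpL24 those of CG7099.

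Several of the shortest members varied most between replicates of 1 genotype, a pattern noticed after the values were seen and described with no test. The SD between replicates, pooled over genotypes on the log2 CPM scale, had a median of 0.28 over the 77 members. It was 0.26 over the 337 other genes that were as abundant as nearly all members and 0.44 over all tested genes. RpL38 had the largest SD at 1.17, followed by RpL41 at 0.98, RpL39 at 0.75, RpS29 at 0.65, RpL36 at 0.65, RpL21 at 0.60 and RpS27 at 0.58. RpS7 had the smallest at 0.17. Across the 77 genes Spearman's rho of this SD with coding length was -0.28, a description across genes that share their libraries.

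**Figure D4:**
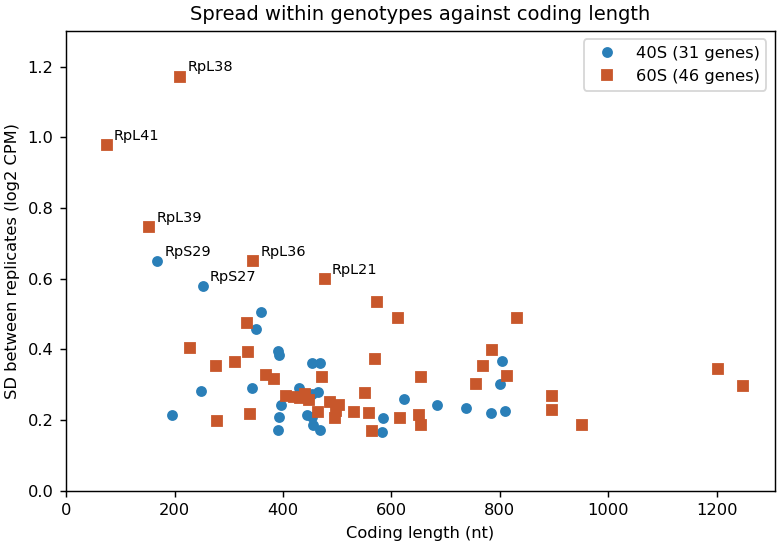
SD between replicates on the log2 CPM scale, pooled over 4 genotypes (vertical axis), against annotated coding length in nt (horizontal axis) for 31 genes of the 40S subunit (blue circles) and 46 of the 60S subunit (orange squares). The 7 members with the largest SD are named; RpL38, RpL41 and RpL39 stand above 0.7, while most others lie between 0.17 and 0.5.

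RpL38 is a small 60S protein gene whose counterpart in mice is known for its role in translating Hox mRNAs. In CPM, RpL38 reached 252, 179 and 56.1 in the control, 258, 182 and 537 where svb knockdown was labelled, 347, 262 and 70.4 in SvbACT and 443, 94.5 and 68.2 in SvbREP. In control, SvbACT and SvbREP replicate 3 was the lowest, while in the group labelled svb knockdown it was the highest. The highest library was 9.57 times the lowest. RpL38 had the largest log2 fold change of the svb knockdown comparison, 1.00 ± 0.86 (SE; adjusted p = 0.63), with an SE almost as large as the value.

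RpL41 and RpL39 followed the same libraries. RpL39 codes for a peptide that lines the exit tunnel, and its exons overlap those of RpL12. RpL41 stood at 951, 992 and 408 CPM in the control libraries, 849.8, 949.9 and 2069 in those labelled svb knockdown, 2117, 948 and 388 in SvbACT and 2069, 675 and 445 in SvbREP. RpL39 had 319.7, 284 and 161 CPM in the control, 267, 288 and 523 under the svb knockdown label, 684, 518 and 229 in SvbACT and 605, 156 and 247 in SvbREP. For RpL41, SvbACT replicate 1, SvbREP replicate 1 and replicate 3 labelled svb knockdown stood above 2000 CPM and all other libraries below 1000. RpL41 had log2 fold changes of 0.72 ± 0.72 (SE; adjusted p = 0.691) for the svb knockdown label and 0.44 ± 0.72 (SE; adjusted p = 0.893) for SvbREP. RpL39 had the highest log2 fold change of the family in SvbACT over control, 0.91 ± 0.53 (SE; adjusted p = 0.454), and its groups overlapped.

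For RpL29 the control replicates gave 424, 476 and 658 CPM, the libraries labelled svb knockdown 373, 433 and 728, SvbACT 684, 674 and 935 and SvbREP 678, 509.8 and 975. RpL29, a short 60S gene whose exons overlap those of CG9752, did not follow those libraries: replicate 3 was its highest in every genotype. Its log2 fold change in SvbREP over control was 0.47 ± 0.28 (SE; adjusted p = 0.533), the highest in the family for that comparison, with overlapping groups.

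Across libraries, the 10 members with the shortest coding regions, at most 279 nt, had a median log2 deviation from their means over all libraries of 0.71 in SvbACT replicate 1, 0.45 in SvbREP replicate 1 and 0.42 in replicate 3 labelled svb knockdown. It was -0.49 in control replicate 3, -0.40 in SvbREP replicate 3, -0.35 in SvbREP replicate 2 and -0.34 in SvbACT replicate 3. High and low libraries thus occurred within SvbACT and within SvbREP. Genes outside the family with transcripts of at most 708 nt (586 genes) deviated by a median of 0.22, 0.48 and 0.35 in the first 3 of these libraries. They deviated by -0.15 in control replicate 3, -0.15 in SvbREP replicate 3, -0.08 in SvbREP replicate 2 and -0.35 in SvbACT replicate 3. Within the family, Spearman's rho between deviation and transcript length ran from -0.60 in SvbREP replicate 1 to 0.38 in SvbACT replicate 3. The part of RNA quality or library preparation was not tested. With a transcript length correction for each library, chosen after seeing the data, the family median was 0.35 in SvbACT over control and 0.37 over SvbREP. In the latter edgeR called RpLP0 and RpLP2, and 611 of all 8069 tested genes.

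**Figure D5:**
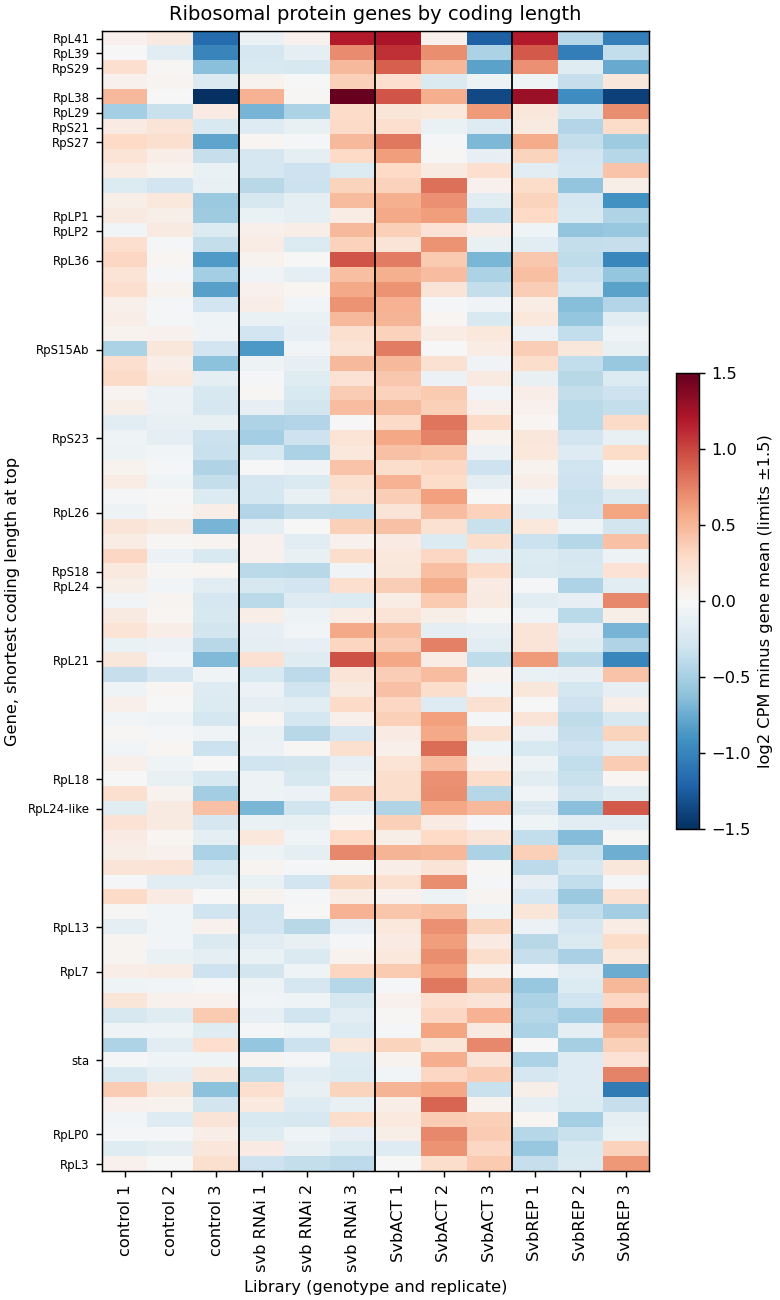
Log2 CPM minus the gene's mean over 12 libraries (colour, limits ±1.5) for the 77 members (rows, shortest coding length at the top, some named) in each library (columns, grouped by genotype). The top of the map changes colour between replicates of 1 genotype, as in SvbACT replicates 1 and 3, while SvbACT replicate 2 is red over most of the map.

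Mitochondrial ribosomal protein genes, which build the separate ribosome of the mitochondrion, are set beside the family here. Of 69 tested, edgeR called 0 in each of the 4 comparisons. Their median log2 fold change was -0.27 in SvbACT over control and -0.44 in SvbACT over SvbREP, against 0.33 and 0.38 for the cytoplasmic genes. It was 0.17 for the svb knockdown label and 0.20 for SvbREP over control. In SvbACT against SvbREP, 11 of the 69 passed an unadjusted p under 0.05, all lower in SvbACT. The share of all tested genes lower on that rule is not reported here, so this count has no background beside it. DESeq2 called 3 of the 69, and 826 of the 8777 genes to which it gave an adjusted p. In SvbACT against control, 5 passed it (1 higher and 4 lower), in the svb knockdown comparison 1 (lower) and in SvbREP against control none, and DESeq2 called 0 in these 3. The difference between the cytoplasmic and mitochondrial families was not tested.

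Cell type markers also separated the libraries labelled svb knockdown from control, and their part in the values of the gene lists below was not tested. Summed progenitor markers were 2676 to 3083 CPM under this label against 3202 to 3494 in control, and enterocyte markers 270.2 to 360.2 against 536.6 to 734.2 CPM. Enteroendocrine markers summed to 36.1 to 98.3 against 6.74 to 28.1 CPM, and visceral muscle markers to 14.3 to 20.7 against 31.5 to 78.9 CPM. None of these 4 pairs of ranges overlapped. No enteroendocrine or muscle marker was called by edgeR, with 7 of 7 tested enteroendocrine and 0 of 7 tested muscle markers above 0. The highest enteroendocrine sum, in svb_RNAi replicate 3, held Tk at 53.1 and Dh31 at 22.6 CPM, and both were at 0 in replicate 1. AstA, not tested, had means of 1.83 CPM in control and 0.16 under this label. Of the 6 progenitor markers 4 had log2 fold changes above 0, with a list median of 0.13. The other 2 were called lower, klu at -0.97 ± 0.20 (SE; adjusted p = 0.0039) and Sox100B at -0.98 ± 0.19 (SE; adjusted p = 0.0024). Of 8 enterocyte markers tested 1 lay above 0, and the list median was -0.09. The 1 called was Myo31DF, at -1.19 ± 0.19 (SE; adjusted p = 0.00061).

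Ribosome biogenesis factors process rRNA and assemble subunits in the nucleolus. Of 33 tested, 3 (9.09%) rose in the libraries labelled svb knockdown and none fell, near the 8.5% called of all tested genes. At an unadjusted p under 0.05 8 passed, all higher, where 19.0% of all tested genes passed in either direction. The list median was 0.38 against 0.02 over all tested genes. In CPM, Surf6 reached 31.2, 28.9 and 19 in the control, 52.7, 54.6 and 76.9 where svb knockdown was labelled, 33.6, 30.6 and 29.4 in SvbACT and 45, 30.3 and 21.5 in SvbREP. Every library labelled svb knockdown lay above all others for Surf6, a nucleolar protein gene, with a log2 fold change of 1.22 ± 0.29 (SE; adjusted p = 0.0128). Nop56 stood at 131, 201 and 143 CPM in the control libraries, 244, 259.8 and 287 in those labelled svb knockdown, 182, 236 and 169 in SvbACT and 217, 184 and 167 in SvbREP. Nop56 codes for a core protein of box C/D small nucleolar particles, which methylate rRNA, and its log2 fold change was 0.73 ± 0.21 (SE; adjusted p = 0.0321). Its libraries labelled svb knockdown lay above those of the other groups. The third was Nop60B, the pseudouridine synthase of box H/ACA particles, at 0.63 ± 0.17 (SE; adjusted p = 0.0311), named after its value was seen. The Surf6 call was lost without control replicate 3 (0.0709) or svb_RNAi replicate 3 (0.0719). The Nop56 call was lost without control replicates 1 or 3 or svb_RNAi replicates 2 or 3, and the Nop60B call without any single 1 of those libraries or svb_RNAi replicate 1, up to an adjusted p of 0.145 for each.

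In the other comparisons biogenesis factors gave 1 call, in SvbACT over SvbREP (3.03% of the 33, against 7.21% of all tested genes). Ns2 had 106, 121 and 107 CPM in the control, 82.4, 114 and 109 under the svb knockdown label, 146, 179 and 192 in SvbACT and 123, 96.4 and 95.7 in SvbREP. Ns2, a nucleostemin-family GTPase gene, rose in SvbACT over SvbREP with all replicates separate, by 0.71 ± 0.20 (SE; adjusted p = 0.0341). That call was lost without SvbACT replicates 2 or 3 or SvbREP replicates 2 or 3, with library totals and with only these groups fitted, up to an adjusted p of 0.155. In SvbACT over SvbREP 2 factors were higher and 3 lower at an unadjusted p under 0.05, DESeq2 called 1 higher, and the list median was -0.01, with 16 of 33 above 0. In SvbACT over control none of the 33 was called by edgeR, 4 passed an unadjusted p under 0.05 and DESeq2 called 2, all higher. On the unadjusted rule 7.32% of all tested genes were higher there. In SvbREP over control no biogenesis factor was called by edgeR or DESeq2, and 3 passed the unadjusted threshold, all higher (12.9% of all tested genes in either direction). The list includes Rrp1, which in Drosophila is a DNA repair enzyme. Rrp1 had the list's largest log2 fold changes in SvbACT and SvbREP over control, 1.025 ± 0.33 and 0.94 ± 0.33 (SE). It is among the genes past the unadjusted threshold in both.

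Of 9 RNA polymerase I genes, which serve the transcription of rRNA, edgeR called none in any of the 4 comparisons. In the libraries labelled svb knockdown 2 passed an unadjusted p under 0.05, both higher, DESeq2 called 1 (Polr1A), and the list median was 0.48. Over all tested genes 19.0% passed that threshold in this comparison, and DESeq2 called 897 of the 8095 to which it gave an adjusted p. In the other comparisons no polymerase I gene passed the unadjusted threshold or was called by DESeq2. Of 36 translation factor genes, 1 (2.78%) rose in the libraries labelled svb knockdown and none fell, against the 8.5% called of all tested genes. At an unadjusted p under 0.05 there 3 were higher and 2 lower, DESeq2 called 2 higher and 1 lower, and the list median was -0.09, with 12 of 36 above 0. The gene called was eIF2beta, which codes for a subunit of the factor that brings initiator tRNA. For eIF2beta the control replicates gave 217, 219.8 and 217 CPM, the libraries labelled svb knockdown 383, 381 and 455, SvbACT 255, 245 and 257 and SvbREP 313, 187 and 172. All its libraries labelled svb knockdown lay above the other 9, and the log2 fold change was 0.90 ± 0.21 (SE; adjusted p = 0.00997), called under all 16 alternatives. In SvbACT over control, SvbREP over control and SvbACT over SvbREP no translation factor was called by edgeR. The shares called of all tested genes there were 4.46%, 2.08% and 7.21%. In the same order 1, 0 and 2 of the 36 passed the unadjusted threshold, and DESeq2 called 1, 0 and 0 of them.

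Xrp1 and its partner Irbp18 are transcription factor genes switched on in Minute cells, where a ribosomal protein gene copy is missing. In CPM, Xrp1 reached 1780, 1469 and 978 in the control, 2127, 1983 and 2318 where svb knockdown was labelled, 1132, 1165 and 679 in SvbACT and 1989, 1581 and 701 in SvbREP. Irbp18 stood at 7.24, 5.58 and 9.21 CPM in the control libraries, 24.4, 19.8 and 31.5 in those labelled svb knockdown, 18.1, 10.2 and 15.5 in SvbACT and 15.9, 8.08 and 0.467 in SvbREP. For both genes the libraries labelled svb knockdown lay above all control libraries. On the log2 scale the fold changes were 0.60 ± 0.33 (SE; adjusted p = 0.354) and 1.79 ± 0.60 (SE; adjusted p = 0.0828), and neither passed the threshold. Irbp18 passed it with DESeq2 (adjusted p = 0.0226) and with only these groups fitted (0.00142), and the range over its alternatives was 0.00142 to 0.23. In SvbACT and SvbREP over control Xrp1 had -0.51 ± 0.33 (SE; adjusted p = 0.497) and 0.02 ± 0.33 (SE; adjusted p = 0.993). Irbp18 had 1.01 ± 0.60 (SE; adjusted p = 0.449) in SvbACT over control, where all SvbACT libraries lay above all control libraries.

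Of the 7 listed Minute-response genes, 2 others rose in the libraries labelled svb knockdown, the glutathione transferase genes GstE6 and GstD1. There 8.5% of all tested genes were called. At an unadjusted p under 0.05, 3 of the 7 passed, against 19.0% of all tested genes. GstE6 had 2.5, 5.87 and 1.67 CPM in the control, 10.3, 16.1 and 16.2 under the svb knockdown label, 6.62, 4.28 and 5.68 in SvbACT and 7.14, 6.32 and 9.81 in SvbREP. For GstD1 the control replicates gave 172, 207 and 128 CPM, the libraries labelled svb knockdown 260.2, 302 and 361, SvbACT 423, 401 and 357 and SvbREP 337, 286 and 225. The control libraries were the lowest group for both genes, with no overlap with the libraries labelled svb knockdown. Log2 fold changes for this label were 2.04 ± 0.52 (SE; adjusted p = 0.0177) for GstE6 and 0.86 ± 0.21 (SE; adjusted p = 0.0149) for GstD1. GstD1 also rose in SvbACT over control, by 1.22 ± 0.22 (SE; adjusted p = 0.00241), called under all 16 alternatives. It was the 1 list gene called by edgeR there, where 4.46% of all tested genes were called. The gene upd3, which codes for a cytokine, had -1.48 ± 0.57 (SE; adjusted p = 0.205) in that comparison, where it was the 1 gene of the list lower at an unadjusted p under 0.05 and the 1 called lower by DESeq2. The GstD1 call for the svb knockdown label was lost without control replicate 3 or svb_RNAi replicate 3 (up to 0.0843). That of GstE6 was lost without control replicates 1 or 3 or svb_RNAi replicates 2 or 3 (up to 0.093). In SvbREP over control and SvbACT over SvbREP edgeR called none of the 7, 2 and 1 passed the unadjusted threshold, and DESeq2 called 1 (GstD1) and 0. The shares called by edgeR of all tested genes were 2.08% and 7.21%.

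Among 12 tested regulators of growth and of ribosomal protein genes (15 were listed), Thor fell in 2 comparisons and none rose. Myc is not analysed here. That 1 call is 8.33% of the 12 in each comparison. The shares of all tested genes were 8.5% for the svb knockdown label and 4.46% for SvbACT. Thor codes for the binding protein that holds back the cap-binding factor eIF4E, and it is a target of FOXO and of TOR signalling. In CPM, Thor reached 207, 208 and 218 in the control, 113, 80.3 and 145 where svb knockdown was labelled, 111, 116 and 120.1 in SvbACT and 209, 132 and 119.5 in SvbREP. All control libraries lay above all libraries labelled svb knockdown and all SvbACT libraries. Its fitted log2 fold change was -0.91 ± 0.23 (SE; adjusted p = 0.0193) for the svb knockdown label and -0.87 ± 0.23 (SE; adjusted p = 0.0428) for SvbACT. The first call was lost without any single control library or svb_RNAi replicates 1 or 2 (up to 0.154). The second was lost without any single 1 of the 6 libraries compared (up to 0.141) and with TMM factors from genes outside the family (0.0536). In SvbACT over control 1 of the 12 regulators had a log2 fold change above 0, and the list median was -0.27. The list was not split by whether a gene promotes or restrains growth, so its median gives no direction of growth control. There 3 were lower at an unadjusted p under 0.05, none was higher, and DESeq2 called 2 lower. For the svb knockdown label 6 of 12 lay above 0, 1 was higher and 1 lower at that threshold (19.0% of all tested genes in either direction), and DESeq2 called 1 lower. In SvbREP over control and SvbACT over SvbREP edgeR called no regulator, 1 and 2 passed the unadjusted threshold, all lower, and DESeq2 called 1 in each (foxo and S6k).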

How the data were processed

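RNA of 12 libraries (4 genotypes, 3 replicates each) was sequenced by the authors as single reads of 100 nt from an Ovation SoLo library kit, per the labels. The submitters' processing notes name FastQC 0.11.5, STAR 2.5.2b, HTSeq 0.6.0, edgeR and the dm6 build; the strand setting of the counting is not given in the sources used here. The authors deposited whole-number read counts per gene for 8802 genes. The deposited table also holds the authors' log2 fold changes, p-values and a call score of 1, 0 or -1 per comparison, which were used only where the authors' deposited table is named.

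Table columns carry the sample descriptions and were assigned on that basis. Gene symbols, coordinates and lengths are those of BDGP6.54 (Ensembl release 115); 8686 identifiers had a symbol. The counts entered edgeR 4.0.16 (R 4.3.3): filterByExpr, TMM scaling, 1 mean per genotype over all 12 libraries, robust quasi-likelihood F tests, and Benjamini-Hochberg adjustment over 8069 genes at 0.05. SE is the size of the log2 fold change over the square root of F. Log2 CPM values used a prior count of 2. DESeq2 1.42.0 was an alternative. The pipeline was tested on simulated data. Library pairs within a genotype differed by more than sampling noise.

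Genes named per comparison were members called, else the 2 highest and 2 lowest, the 8 smallest p-values over the 4 genotypes, paralogs, stalk genes, sta, the extremes per kb and up to 2 called list genes per direction; 1 gene this names is not reported here. RpL40, RpS27A and the members named for their spread were chosen after their values were seen. The members and gene lists were chosen with earlier results of these data known. Alternatives changed scaling, filter, tool, groups fitted, robust estimation, replicate block and each replicate; length corrections were added after seeing the data.

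The labels place replicates on separate calendar days without tying a number to a day. Replicate numbers were taken to pair libraries where every same-numbered correlation across genes exceeded 0.1, which held in SvbREP against control (0.175, 0.108 and 0.256) and in none of the other 3 comparisons. With the replicate block that comparison called 290 genes instead of 168, and still no member.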

Additional observations from a re-analysis of the deposited data

How the results depend on the processing

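Over 393 alternative values of 27 results, 326 stayed the same by the rule for their kind, 22 moved, 41 lost and 4 gained a call. Reversal of sign was scored only for named genes, with 0 found. Family medians were scored by size of change, whatever their sign. They moved by less than their replicate SD of 0.177 (log2) under every alternative. Those for the svb knockdown label and for SvbREP over control changed sign under some. Library totals in place of TMM moved the median of all genes to 0.16 for the svb knockdown label and to 0.09 for SvbREP over control, and the family medians moved with them, to 0.16 and 0.07. Calls in SvbACT against SvbREP numbered 1, and 0 with library totals, 0 with only 2 groups, 3 with DESeq2, 2 with the length correction, 8 with length correction and replicate block, and 0 to 5 with single replicates left out. Over all genes the calls numbered 582, 608, 340, 826, 611, 734 and 355 to 599 in the same order. In SvbACT against control, 0 became 1 with DESeq2 and 2 with length correction and replicate block, while calls over all genes went from 360 to 612 and 539. Over the 4 genotypes, 0 became 5 with DESeq2, 5 with the replicate block (RpL13, RpL23, RpL29, RpLP0 and RpS3A), 1 with the length correction, 10 with length correction and block, and 0 to 7 with single replicates left out, the highest count coming without SvbREP replicate 3. Over all genes 1184 calls became 1667, 1484, 1200, 1496 and 885 to 1357 in the same order. The cause of these moves was not tested. The replicate block left 0, 0, 0 and 1 members called in the 4 pairwise comparisons. Apart from SvbREP against control, the samples share only a number: the lowest same-numbered correlation was 0.062 for the svb knockdown label, 0.0186 for SvbACT over control and -0.0174 for SvbACT over SvbREP. Every sample correlated best with its own number for the svb knockdown label, a hint from the data and not the design, and not in the SvbACT comparisons. In these 3 the block kept the count of all genes called within 1.5 times. With DESeq2, 612 genes were called in SvbACT against control and 317 in SvbREP against control, against 360 and 168. With only 2 groups fitted, SvbACT against SvbREP called 340 genes and svb knockdown against control 1091, against 582 and 686. With single replicates left out these comparisons called 54 to 242 genes in SvbREP, 175 to 279 in SvbACT, 407 to 549 for the svb knockdown label and 355 to 599 in SvbACT against SvbREP. Without the 20 most abundant other genes the family's shares were 9.08% in control, 9.87% for the svb knockdown label, 11.3% in SvbACT and 9.42% in SvbREP. Counts were not thinned, so what depth limits was not tested.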
